A study of Homo sapiens with 4 samples.

Results

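The genes that build cholesterol and fatty acids were followed through RNA sequencing of MDA-MB-231 cells, a human breast cancer line that grows with a mesenchymal form and without the oestrogen receptor. The group held 32 genes of the 61541 in the deposited count table, found by matching each Ensembl identifier to a fixed list of symbols. The rule uses no expression value, but the list was drawn up with earlier results of these data known. Of the 32 genes, 7 act in the mevalonate arm, 11 turn its product into cholesterol and 5 regulate or carry sterols. The other 9 form a fatty acid arm of genes that make, lengthen or desaturate fatty acids, with LPIN1, a phosphatidate phosphatase, grouped with them. All 32 had reads in every library, with a lowest raw count of 539, and all passed the filter on low counts.

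Polyadenylated RNA was measured in 4 libraries: 2 of cells labelled as having no treatment, called control here, and 2 of cells grown for many passages in 10 µM cadmium, called cadmium. The cadmium cells were selected by serial passage in cadmium sulphate, and both groups were the same line. The columns of the table name the control libraries 2 and 3 and the cadmium libraries 1 and 2, and those names are kept here. The control libraries are labelled biological replicates, the sources used here do not say how far the cadmium libraries come from separate cultures, and p-values therefore measure the spread between these libraries.

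Library totals ran from 51934729 to 61916007 counts. VIM, CD44 and AXL, markers of this line, were high in all 4 libraries, while SPARC, also listed as a high marker, was at only 51 to 151 normalized counts. Of the markers listed as low or absent, ESR1 and PGR stayed at or below 29.6. ERBB2 and GATA3, listed in the same way, were at 4584 to 6773 and at 489 to 991. EPCAM and CDH1, also listed so, are given below. CD3E, which defines T cells, was at 0 throughout. Of the fat cell markers, ADIPOQ was at 0, and PLIN1 was at 37.8 and 89.3 normalized counts in control 2 and control 3 and at 32.8 and 26.7 in cadmium. The control libraries stood further apart than the cadmium libraries. Over the 12923 genes whose normalized counts averaged 100 or more, called expressed here, 14.2% were more than 2-fold apart in the control pair and 0.317% in the cadmium pair. Control 2 was more than 2-fold from cadmium 1 for 12.6% of genes and from cadmium 2 for 11.1%. For control 3 these shares were 5.42% and 4.68%, so control 2 was the control further from the cadmium libraries over all genes. Of the 12 markers fixed for other cell types, 5 were higher in control 3 than in control 2, with PTPRC at 144 against 1.89 and PECAM1 at 842 against 160 normalized counts. Their summed level was 1471 and 2774 in control 2 and control 3, and 1970 and 2240 in the cadmium libraries, and their part in the results below was not tested. The epithelial marker EPCAM was at 2410 in control 2 and at 662 to 774 in the other libraries, and CDH1 at 615 in control 3 and at 107 to 169 in the others. Because these are bulk cultures, fewer cells making a transcript and less of it per cell cannot be told apart.

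Cholesterol is built from acetyl-CoA through mevalonate and isoprenoid units to squalene, which is then closed into the sterol ring and trimmed. When sterols run low in the endoplasmic reticulum, SCAP escorts the SREBP factors, the products of SREBF1 and SREBF2, to the Golgi, where they are cut and released to switch on most of these genes. When sterols are plentiful, INSIG proteins hold SCAP back. SREBP-2 acts mainly on the sterol arm and SREBP-1 on the fatty acid arm, and the oxysterol receptors LXR raise SREBF1 and the sterol exporters. Promoters of the SREBP targets often carry a CCAAT box, bound by NF-Y, beside the sterol element.

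No member passed the test of cadmium against control in the fit across all genes. DESeq2 called 0 of the 32 genes at an adjusted p-value below 0.1, against 1.14% of the 19816 genes tested, which were 119 higher and 106 lower in cadmium (152 and 88 with upper-quartile factors). At an unadjusted p below 0.05, DESeq2, edgeR and limma each found 0 of the 32, while the share of all tested genes was 6.92%, 7.39% and 7.40%. The lowest p of a member in DESeq2 was 0.171, for INSIG1, with an adjusted p of 0.946. The log2 fold changes of cadmium over control ran from −0.38 for SREBF1 to 0.56 for SC5D with a median of 0.09, beside a median of −0.03 over the 18871 genes whose normalized counts averaged 10 or more. Of the 32, 22 were above 0 and 10 below.

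**Figure D1:**
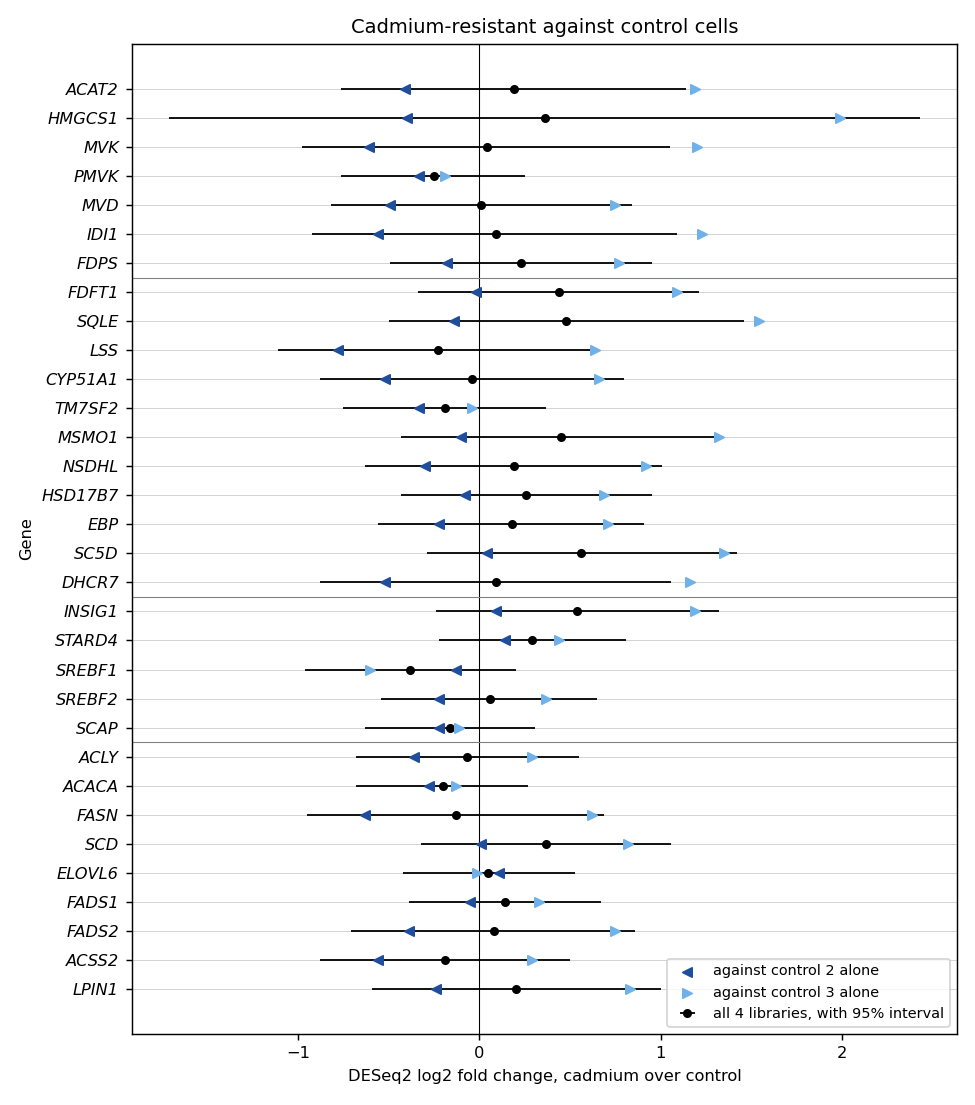
Log2 fold change of cadmium over control for each of the 32 genes, with 95% intervals from DESeq2 and 2 libraries a group. The intervals cross 0 for every gene, and the widest belongs to HMGCS1, from −1.71 to 2.43.

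The intervals around these estimates were wide. Standard errors ran from 0.24 to 1.06 on the log2 scale with a median of 0.40, and 18 of the 32 intervals at 95% lay within a 2-fold change in either direction. Among the narrow cases was ELOVL6, a fatty acid elongase, with a log2 fold change of 0.05 and an interval from −0.42 to 0.53. SCAP, from −0.63 to 0.31, and ACACA, from −0.68 to 0.27, had the same standard error of 0.24. For 14 genes, HMGCS1, SQLE, LSS and DHCR7 among them, a change of more than 2-fold in at least 1 direction was inside the interval. The missed threshold therefore does not show that the levels were equal.

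Control 3 held less RNA of these genes than control 2. It was below control 2 for 30 of the 32 genes, against 54.5% of expressed genes, and more than 2-fold below for 17 of them, against 6.93%. No member was more than 2-fold above in control 3, where 7.23% of expressed genes were. The median log2 ratio of control 3 to control 2 was −1.08, a 2.11-fold gap, beside −0.06 over all 12923 genes. The median was −1.59 in the mevalonate arm, −1.21 in the sterol arm, −0.80 in the fatty acid arm and −0.29 among regulators. These ratios compare 1 library with 1 library, so no test of the gap was made. They do not show which control departed from the usual level of the line.

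**Figure D2:**
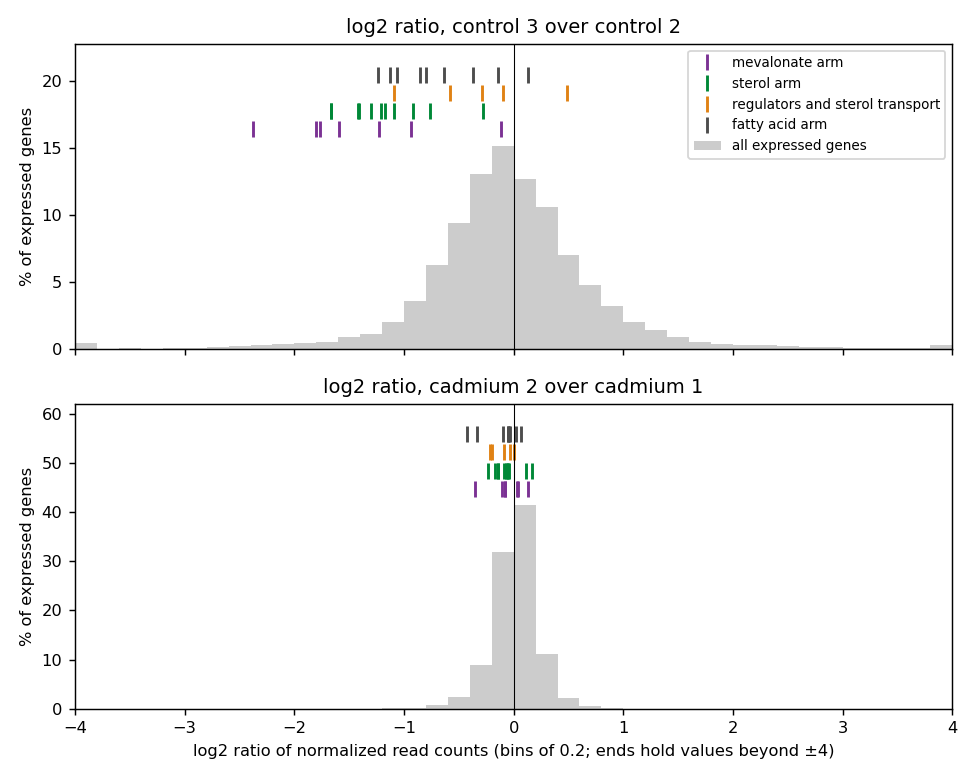
Log2 ratio of control 3 to control 2 and of cadmium 2 to cadmium 1 for the 32 genes and for all expressed genes. The control ratios of the members have a median of −1.08, while their cadmium ratios run from −0.43 to 0.17.

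In the mevalonate arm, HMGCS1, the synthase that makes HMG-CoA (chromosome 5, 43287470 to 43313512, minus strand, GRCh38), held 9830 and 1886 normalized counts in control 2 and control 3, and 8440 and 6605 in cadmium 1 and cadmium 2. The controls were 5.21-fold apart, the widest gap among the members, and both cadmium libraries lay between them. IDI1, which isomerizes isopentenyl diphosphate, held 8140 and 2380 in the controls and 5746 and 5421 in cadmium. MVK, mevalonate kinase, held 5106 and 1471 in the controls and 3330 and 3415 in cadmium. In both genes the cadmium libraries were close to each other and between controls that differed over 3-fold. ACAT2, which condenses acetyl-CoA, held 6898 and 2290 in the controls and 5013 and 5468 in cadmium. MVD, which decarboxylates mevalonate diphosphate, held 4336 and 1853 in the controls and 3237 and 2989 in cadmium. Of the other genes of this arm, FDPS had the same order with a smaller gap, and PMVK, phosphomevalonate kinase, had a control log2 ratio of −0.12 with both cadmium libraries below both controls.

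The upstream sequences of HMGCS1 and IDI1 are shown because these genes had large control gaps; capitals mark CCAAT boxes on either strand (read as CCAAT or ATTGG). The bases are from RefSeq, GRCh38.p14, given 5′ to 3′ along the gene and trimmed to stretches outside annotated exons, at chr5:43313513-43313662 (minus strand) and chr10:1049120-1049369 (minus strand).
HMGCS1: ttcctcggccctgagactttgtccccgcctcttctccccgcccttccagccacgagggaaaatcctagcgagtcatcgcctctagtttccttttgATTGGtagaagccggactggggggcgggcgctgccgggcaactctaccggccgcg
IDI1: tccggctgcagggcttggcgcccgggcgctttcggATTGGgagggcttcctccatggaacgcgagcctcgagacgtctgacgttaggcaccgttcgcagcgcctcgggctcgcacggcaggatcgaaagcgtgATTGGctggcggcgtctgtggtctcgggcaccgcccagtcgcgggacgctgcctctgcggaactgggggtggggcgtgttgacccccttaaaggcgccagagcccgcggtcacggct

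Of the 32 genes, 28 had a promoter window in that set, covering 250 bases before each start. Both strands were searched. CCAAT was found for 20 of the 28 genes (71.4%), against 37.0% of all genes with a window. GGGCGG, the GC box bound by Sp1, was found in 35 of the members' 40 windows (87.5%), against 42.6% of all 35116 windows. The sterol element core TCACNCCAC was found in 1 of the 28 genes (3.57%), SREBF2, against 1.09% of all genes with a window. TGCACNC and TGCGCNC, the forms of the metal response element core bound by MTF-1, were found in 3 of 40 windows (7.5%, against 9.87%) and in 10 of 40 (25.0%, against 16.8%). A match is only the presence of the letters, and overlaps between motifs were not removed. The windows of all genes were not matched to those of the members for expression or base content. Whether the higher shares are particular to these genes was therefore not tested.

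In the sterol arm, the controls were more than 2-fold apart for 8 of 11 genes. LSS, lanosterol synthase, held 25074 and 9400 normalized counts in the controls and 14944 and 14471 in cadmium. DHCR7, which reduces 7-dehydrocholesterol to cholesterol, held 25959 and 8134 in the controls and 18580 and 17822 in cadmium. SQLE, squalene epoxidase, held 3758 and 1181 in the controls and 3553 and 3330 in cadmium. Control 3 was the low library in all these genes and the cadmium libraries lay between the controls. MSMO1, a sterol demethylase, held 11613 and 4371 in the controls and 11452 and 10423 in cadmium. NSDHL, which acts beside it, held 4961 and 2150 in the controls and 4118 and 4019 in cadmium. CYP51A1, the lanosterol demethylase, held 1293 and 573 in the controls and 929 and 884 in cadmium, but 74.1% of its exonic bases are shared with other genes and reads over them were dropped, so its level is understated. FDFT1, squalene synthase, held 17481 and 8183 in the controls and 16718 and 18051 in cadmium. SC5D, a sterol desaturase, held 6411 and 2600 in the controls and 7038 and 6266 in cadmium. In these last genes 1 cadmium library passed control 2, so the groups overlapped. TM7SF2, EBP and HSD17B7 showed smaller control gaps.

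The upstream sequences of MSMO1, with 4 CCAAT boxes, and LSS, with 1, are given as above, at chr4:165327419-165327666 (plus strand) and chr21:46228825-46229024 (minus strand).
MSMO1: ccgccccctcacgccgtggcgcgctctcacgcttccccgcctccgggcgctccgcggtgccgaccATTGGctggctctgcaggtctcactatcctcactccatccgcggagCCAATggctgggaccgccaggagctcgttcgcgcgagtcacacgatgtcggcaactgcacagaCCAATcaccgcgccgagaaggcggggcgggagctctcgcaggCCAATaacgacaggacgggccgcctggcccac
LSS: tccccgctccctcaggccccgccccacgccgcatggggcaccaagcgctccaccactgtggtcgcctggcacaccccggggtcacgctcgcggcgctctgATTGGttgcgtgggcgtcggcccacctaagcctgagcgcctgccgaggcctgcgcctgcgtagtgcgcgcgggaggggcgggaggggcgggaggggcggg

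**Figure D3:**
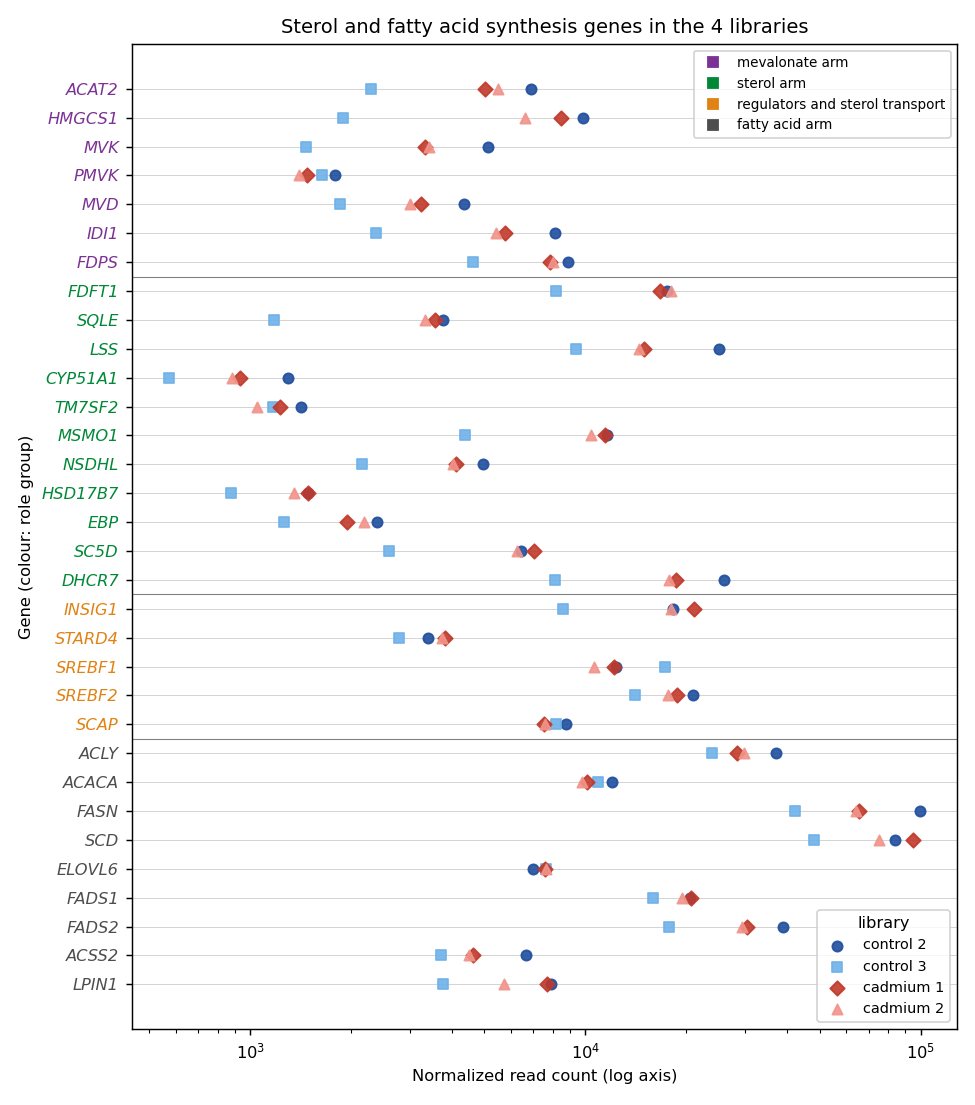
Normalized counts of the 32 genes in each of the 4 libraries, on a log axis, grouped by role. Control 3 is the lowest library for most of the mevalonate and sterol genes, and the cadmium libraries sit close together.

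Among the regulators, INSIG1, which holds SCAP in the endoplasmic reticulum and is itself an SREBP target, held 18220 and 8550 normalized counts in the controls and 21028 and 18027 in cadmium. Its cadmium values straddled control 2. SREBF1 ran the other way: it held 12303 and 17280 in the controls and 12159 and 10585 in cadmium. SREBF2 held 21004 and 14054 in the controls and 18776 and 17701 in cadmium. SREBF1 was thus higher in control 3 and lower in both cadmium libraries than in either control. SREBF2 was highest in control 2 and lowest in control 3, with both cadmium libraries between. That order held for 20 of the 32 genes, SREBF2 among them, against 19.0% of expressed genes, which were not matched for the control gap. STARD4, a sterol carrier, was the member with both cadmium libraries above both controls, at 3815 and 3744 against 3396 and 2773. SCAP had a control log2 ratio of −0.10 and lay lower in both cadmium libraries than in either control.

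The upstream sequence of SREBF1, which was higher in control 3, is shown as 1 without a CCAAT box. CYP51A1, FADS2 and LPIN1, whose controls were more than 2-fold apart the other way, also had none, so its absence does not set SREBF1 apart. The sequence of SREBF1 and that of SREBF2, shown for the sterol element in capitals, are at chr17:17837003-17837236 (minus strand) and chr22:41832962-41832990 (plus strand).
SREBF1: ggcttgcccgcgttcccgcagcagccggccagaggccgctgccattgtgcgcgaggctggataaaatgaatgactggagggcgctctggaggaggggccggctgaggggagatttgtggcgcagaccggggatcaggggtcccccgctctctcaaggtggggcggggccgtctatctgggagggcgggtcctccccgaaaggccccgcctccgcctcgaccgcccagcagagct
SREBF2: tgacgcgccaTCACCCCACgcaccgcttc

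In the fatty acid arm, FASN, fatty acid synthase, held 99589 and 42246 normalized counts in the controls and 65457 and 64318 in cadmium. FADS2, a desaturase of polyunsaturated fatty acids, held 38874 and 17731 in the controls and 30419 and 29392 in cadmium. LPIN1, a phosphatidate phosphatase, held 7890 and 3771 in the controls and 7694 and 5728 in cadmium. These were the 3 of 9 genes in this arm with more than a 2-fold control gap, and in each the cadmium values fell between the controls. SCD, the desaturase that makes oleate, was the most abundant member per length, at a mean of 1090 counts per kilobase of exon, with each library scaled to sum to 1000000, rank 88 of 33455 genes with a read. FASN followed at 551 and ACLY, which makes cytosolic acetyl-CoA, at 434, whereas HSD17B7 stood at 20.7 and CYP51A1 at 16.7, a value without the reads dropped over its shared bases. ACACA and ELOVL6 had control log2 ratios of −0.14 and 0.13.

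Across the 32 genes, both cadmium libraries lay between the controls for 20, against 34.2% of expressed genes, and for these 20 they were above control 3 and below control 2, against 19.0%. The mean of the cadmium libraries was closer to control 2 for 24 of 32, against 34.9%. Both cadmium libraries lay above both controls for STARD4 only (17.7% of expressed genes) and below both for PMVK, SREBF1, SCAP and ACACA (23.8%). A wider control gap leaves more room between the controls, and gaps above 2-fold were commoner among members (17 of 32) than among expressed genes (14.2%). The expressed genes were not matched to the members for this gap. Whether these shares are particular to the members, beyond the gap itself, was therefore not tested. The cadmium libraries themselves differed by more than 2-fold for 0 of the 32. The median log2 ratio to control 2 was −0.22 for cadmium 1 and −0.30 for cadmium 2, and to control 3 it was 0.76 and 0.64.

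The calls of these genes changed with the control that was kept. Without control 2, DESeq2 called 25 members higher, against 7.36% of 15625 genes tested, and 1, SREBF1, lower (adjusted p = 9.37e-05), against 7.43%. Without control 3, it called 0 higher, against 13.5% of 19813, and 14 lower, against 17.7%. HMGCS1 had a log2 fold change of 1.99 against control 3 alone and of −0.40 against control 2 alone, LSS of 0.64 and −0.78, and FASN of 0.62 and −0.63. The median over the 32 was 0.73 without control 2 and −0.26 without control 3. Each of these fits has 1 control library, assumed to vary like the cadmium libraries.

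The control gap was compared with that of neighbouring genes on the chromosome. The median log2 ratio of control 3 to control 2 over the 40 nearest expressed genes ran from −0.71 at IDI1 to 0.33 at MSMO1, with a median of −0.07, and was below −1 at 0 of the 32. With the neighbours subtracted, the gap had a median of −0.95, was below 0 for 27 and below −1 for 16. Low neighbour values stood beside IDI1, LPIN1 (−0.70) and TM7SF2 (−0.62).

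**Figure D4:**
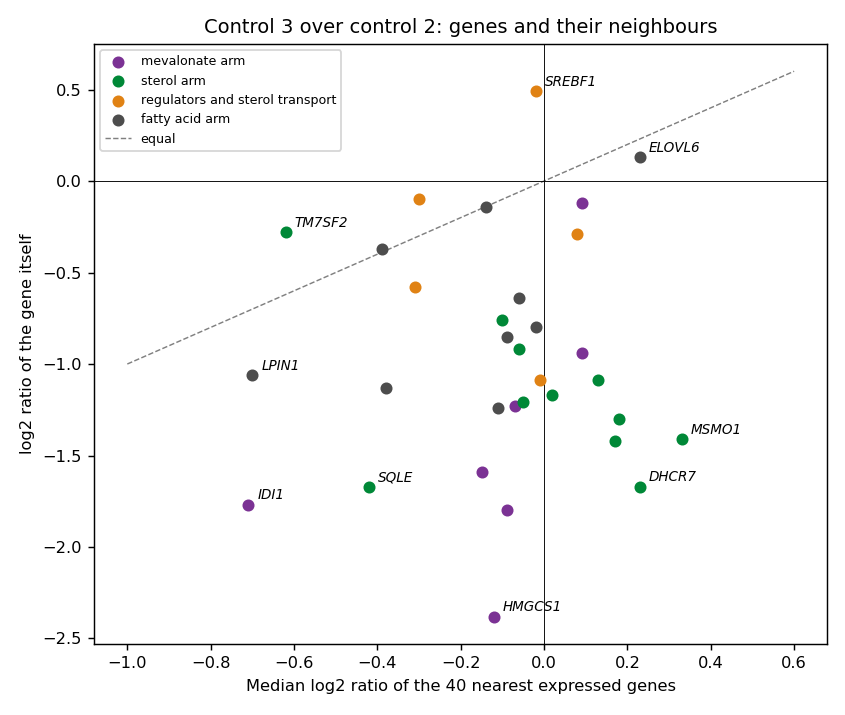
Log2 ratio of control 3 to control 2 for each member against the median of that ratio over its 40 nearest expressed genes. Most members lie below their neighbours, with a median difference of −0.95.

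A list of 59 other genes of sterol and fatty acid metabolism was read from the same fit. Of the 54 tested, 2 were called, both lower in cadmium, and 0 higher, beside 0.535% and 0.601% of all genes. ABCG1, a sterol exporter raised by LXR (chromosome 21, 42199689 to 42297244), held 50.1 and 495 normalized counts in the controls and 8.96 and 15.8 in cadmium, a log2 fold change of −4.46 ± 0.91 (SE, DESeq2 adjusted p = 0.000424). It was 9.71-fold higher in control 3 than in control 2, and its call was lost without control 3 (log2 fold change −2.03, adjusted p = 0.169) and without cadmium 1 (log2 fold change −4.12, adjusted p = 0.117). ACSS1, the mitochondrial acetyl-CoA synthetase, held 1508 and 947 in the controls and 315 and 338 in cadmium, a log2 fold change of −1.91 ± 0.35 (SE, DESeq2 adjusted p = 2.8e-05). Its call was lost without cadmium 1 or cadmium 2, at DESeq2 adjusted p-values of 0.531 and 0.355, with log2 fold changes of −1.87 and −1.96. The call of ACSS1 remained without control 2 or control 3, at DESeq2 adjusted p-values of 2.4e-07 and 2.75e-20. edgeR gave ABCG1 and ACSS1 an adjusted p of 0.674.

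The other genes given for low p-values were taken within each direction, and they missed the threshold in DESeq2. Some genes of the list with lower p-values than the last of these are not named. NR1H3, which encodes LXR-alpha, held 1130 and 1345 normalized counts in the controls and 666 and 737 in cadmium (DESeq2 adjusted p = 0.213). CH25H, which makes an oxysterol, held 60.6 and 84.0 in the controls and 21.9 and 19.7 in cadmium (DESeq2 adjusted p = 0.249). Both were lower in each cadmium library than in each control. ACSL4, which loads arachidonate onto CoA, held 7830 and 10443 in the controls and 15498 and 15583 in cadmium (DESeq2 adjusted p = 0.268). The neighbours of ACSL4 had a median log2 ratio of cadmium over control of 0.31. PNPLA3, a lipid droplet lipase, held 574 and 779 in the controls and 968 and 962 in cadmium (DESeq2 unadjusted p = 0.0946, adjusted p = 0.846). GPAM, which starts glycerolipid synthesis, held 966 and 1193 against 1437 and 1275 (DESeq2 unadjusted p = 0.248). These 2 genes were thus further from the threshold than NR1H3, CH25H and ACSL4. Control 3 was more than 2-fold below control 2 for 5 of the 51 list genes with a mean of at least 100. That was 9.8%, against 6.93% of expressed genes. Control 3 was more than 2-fold above control 2 for 3 of the 51 (5.88%), against 7.23%. Both shares were near those of expressed genes. TMEM97 was among the 5, at 8653 and 2729 in the controls and 5371 and 5174 in cadmium. ABCA1, another sterol exporter raised by LXR, was among the 3, at 1087 and 3585 in the controls and 1182 and 681 in cadmium. The DESeq2 unadjusted p of ABCA1 was 0.0151, with an adjusted p of 0.432. TMEM97 and ABCA1 were chosen after their values were seen.

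**Figure D5:**
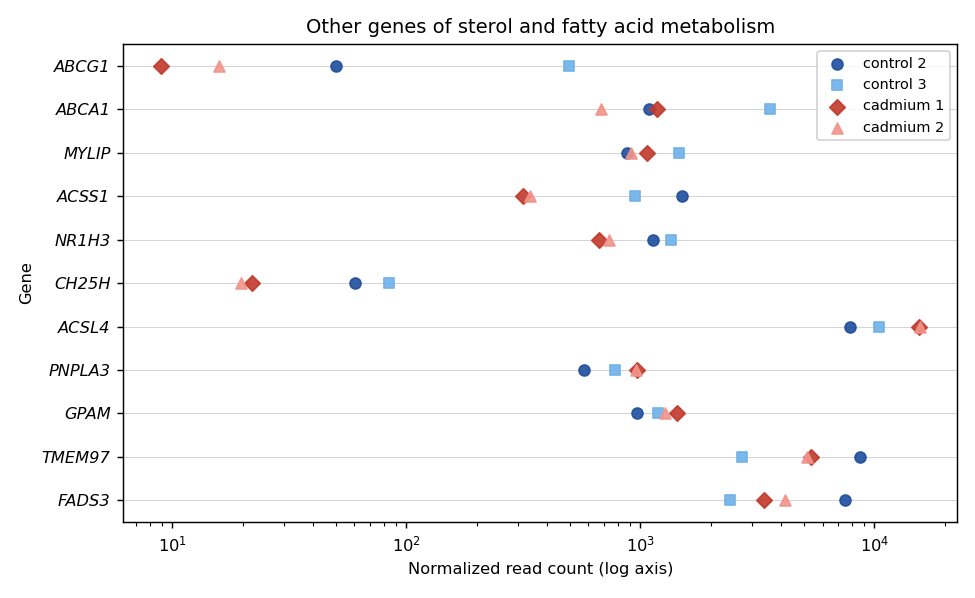
Normalized counts of 11 other lipid genes in the 4 libraries, on a log axis. ABCG1 and ABCA1 are highest in control 3, and TMEM97 and FADS3 are highest in control 2.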

How the data were processed

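RNA of 2 control and 2 cadmium libraries was analysed. The authors deposited whole-number counts per Ensembl gene, made by alignment to hg38 with HISAT2 and by featureCounts 2.0.1 (annotation release 105), unstranded, with reads over more than 1 gene dropped; the values are counts, not normalized. Even values made up 70.6% to 71.5% of counts from 1 to 20, and the recorded command had no option that counts a read pair once. 37 mitochondrial genes were at 0. Gene symbols matched 61369 of 61541 identifiers. The header names the control inputs A and B, the columns say 2 and 3 and the labels say 1 and 2, so columns were assigned to groups and not to numbered samples. No other per-sample column was present.

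Counts were compared with DESeq2 1.42.0 (R 4.3.3, two-sided Wald test, median-of-ratios factors, Benjamini-Hochberg adjustment over all genes, level 0.1, mean-count filter 7.69). edgeR 4.0.16 and limma 3.58.1 were alternatives, as were other scaling factors, filters, halved counts and each library left out. The fits were tested on simulated data of this design: planted changes that were called had the right direction, but both DESeq2 and edgeR made more false calls than the level allows, DESeq2 more than edgeR. An exact test of 2 against 2 libraries cannot go below 0.333 two-sided. Ratios between libraries used genes whose normalized counts averaged 100 or more, with a pseudocount of 1. Levels between genes were compared as counts per kilobase of the exon length in the table, scaled to sum to 1000000 in each library.

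The members, the list of 59 other genes and the motifs were chosen with earlier results of these data known. Values in every library are given for members that are called and for those with controls more than 2-fold apart. The same holds for members outside the control range with an absolute log2 fold change of at least 0.5. SREBF1, SREBF2 and STARD4 meet none of these rules and were added to them. From the list of 59, values are given for called genes and up to 4 in each direction with the lowest p. Some genes of that list are counted but not reported by name here. Exons of 18 members overlap other genes, over more than 20% of their bases in CYP51A1 (74.1%), HMGCS1 (37.7%), EBP (36.4%) and ACAT2 (22.2%).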

Additional observations from a re-analysis of the deposited data

How the results depend on the processing

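The calls and fold changes were recomputed under other tools, scalings, filters, halved counts and left-out libraries, and the ratios between libraries under other scalings. The neighbour correction was applied to the members' fold changes and to the control gap. The cause of each shift below was not tested. The alternatives for the ratios between libraries, and halved counts for the calls over all genes and over the list of 59, were chosen after seeing the data. Over all genes, edgeR and limma called 0 higher and 0 lower, against 119 and 106 in DESeq2, with lowest adjusted p-values of 0.674 and 0.656, and 0 rather than 2 genes of the list of 59 lower. With each library left out in turn, genes called higher ranged from 9 (without cadmium 2) to 2678 (without control 3) and lower from 5 (without either cadmium library) to 3511 (without control 3). Members called higher ranged from 0 to 25 (without control 2) and lower from 0 to 14 (without control 3). In the list of 59, the ranges were 0 to 11 (without control 2) and 0 to 19 (without control 3). Under the alternatives that kept all 4 libraries, the lowest adjusted p of a member was 0.707. The 17 members more than 2-fold lower in control 3 were 17 with TMM and with upper-quartile factors and 16 with neighbours subtracted, and the 20 between the controls were 20 and 17.

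Directions turned for CYP51A1 in limma (0.06), with upper-quartile factors (0.02) and with neighbours subtracted (0.24), for FASN in limma (0.00), and with neighbours subtracted for MVD (−0.03), TM7SF2 (0.18) and DHCR7 (−0.06), all as log2 fold changes. With a library left out, the log2 fold change crossed 0 for 23 members: ACAT2 −0.41 to 1.19, ACLY −0.36 to 0.29, ACSS2 −0.56 to 0.29, CYP51A1 −0.52 to 0.66, DHCR7 −0.52 to 1.16, EBP −0.22 to 0.71, ELOVL6 −0.01 to 0.11, FADS1 −0.05 to 0.33, FADS2 −0.39 to 0.75, FASN −0.63 to 0.62, FDFT1 −0.02 to 1.09, FDPS −0.18 to 0.77, HMGCS1 −0.40 to 1.99, HSD17B7 −0.08 to 0.69, IDI1 −0.56 to 1.23, LPIN1 −0.24 to 0.83, LSS −0.78 to 0.64, MSMO1 −0.10 to 1.32, MVD −0.49 to 0.75, MVK −0.61 to 1.20, NSDHL −0.30 to 0.92, SQLE −0.14 to 1.54 and SREBF2 −0.22 to 0.37.

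No paired analysis was possible because the numbers in the control column names are not those of the labels. Every member had at least 539 counts in each library, and there were 2 libraries a group. The part of depth in the missing calls was not tested.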
